A study of Mus musculus with 2 samples.

Results

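The troponin and tropomyosin genes of striated muscle were compared between wild-type (WT) and *Gde5* skKO gastrocnemius (GAS) muscle. They are Tnni1, Tnni2, Tnnt1, Tnnt2, Tnnt3, Tnnc1, Tnnc2, Tpm1, Tpm2 and Tpm3, and they were found by name, or by an older or current alias, among the probes that are not controls on both arrays. All 10 were found, on 17 probes, and all 10 were among the 13595 genes tested, which needed a channel well above background on array 1 and also on array 2. Of these 10, the slow fibre forms are Tnni1, Tnnt1, Tnnc1 and Tpm3, and the fast fibre partners are Tnni2, Tnnt3, Tnnc2 and Tpm1. Tpm2 is used by both kinds of fibre, and Tnnt2 is the cardiac form of troponin T.

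In a sarcomere, the thin filament is a chain of actin with tropomyosin lying along it and a troponin complex seated on each tropomyosin. Troponin C binds calcium, troponin I holds the filament in its blocked state until calcium arrives, and troponin T ties the complex to tropomyosin. Slow and fast fibres build this switch from products of different genes, so the forms present in a muscle are a classical marker of its fibre makeup, and mouse GAS is a mostly fast muscle with a slow portion.

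The study deleted *Gde5* (Gpcpd1), an enzyme that hydrolyzes glycerophosphocholine, in skeletal muscle, and both genotypes were male C57BL/6 mice 15 weeks old on a normal diet. According to the methods, *Gde5* skKO mice carried floxed *Gde5* alleles and a Cre transgene under the human skeletal muscle actin (HSA) promoter, and the controls of the force and glucose experiments were floxed littermates without Cre. That promoter is known to be active in skeletal muscle fibres. The labels name the controls only as wild-type. They name 5 mice but neither say whether RNA was pooled nor whether both arrays held the same RNA. The paper describes array comparisons of mice after a glucose injection and of fasted mice, and the labels do not say which of them these arrays hold.

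Each of the 2 arrays held both genotypes in competing dyes. WT RNA carried Cy3 on array 1 and Cy5 on array 2, and *Gde5* skKO RNA carried the other dye. Every ratio below is a log2 ratio of *Gde5* skKO over WT, given per array, and each member stands by its brightest probe unless another is named. A gene counts as called when the p-value that the scanner software, Feature Extraction, gives the spot was under 0.05 on both arrays with the same direction. That p-value weighs the noise of a spot and not the spread between mice, so no test across mice was made. Per array and genotype, between 44.6% and 53.2% of the spots kept had a signal well above background. In bulk RNA, fewer cells of a type and less RNA per cell cannot be told apart. By this rule *Gde5* skKO muscle had 215 higher genes of 13595 (1.58%) and 235 lower ones (1.73%). The targeted gene, listed under its old name Prei4, fell on 3 of 4 probes, whose mean log2 ratios lay between -3.18 and -2.93, and Gpcpd1 had -0.26 on the remaining probe.

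With the software's own correction, the slow forms lay above their fast partners in troponin I, T and C on both arrays. With limma's normexp and loess, an alternative normalization, this held for troponin I, while Tnnt1 minus Tnnt3 was -0.22 on array 1 and Tnnc1 minus Tnnc2 was -0.04 on array 2. Tnni1 was the 1 member of 10 called higher, against a background of 1.58% of all genes, and none of 10 was called lower, against 1.73%. All 4 slow forms had ratios above 0 on both arrays and no fast form did, where 29.2% of all genes were above 0 on both arrays. With limma Tnnt1 was at -0.14 on array 1. Of the 4 fast forms, 3 were below 0 on both arrays, where 25.3% of all genes were. Limma put Tnnt3 at 0.08 on array 1 and Tnnc2 at 0.22 on array 2. The median of the mean ratios was 0.45 over the 4 slow forms and -0.09 over the 4 fast forms, against 0.01 over all genes. On array 1 the slow and fast medians were 0.47 and -0.06, and on array 2 they were 0.51 and -0.18.

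**Figure D1:**
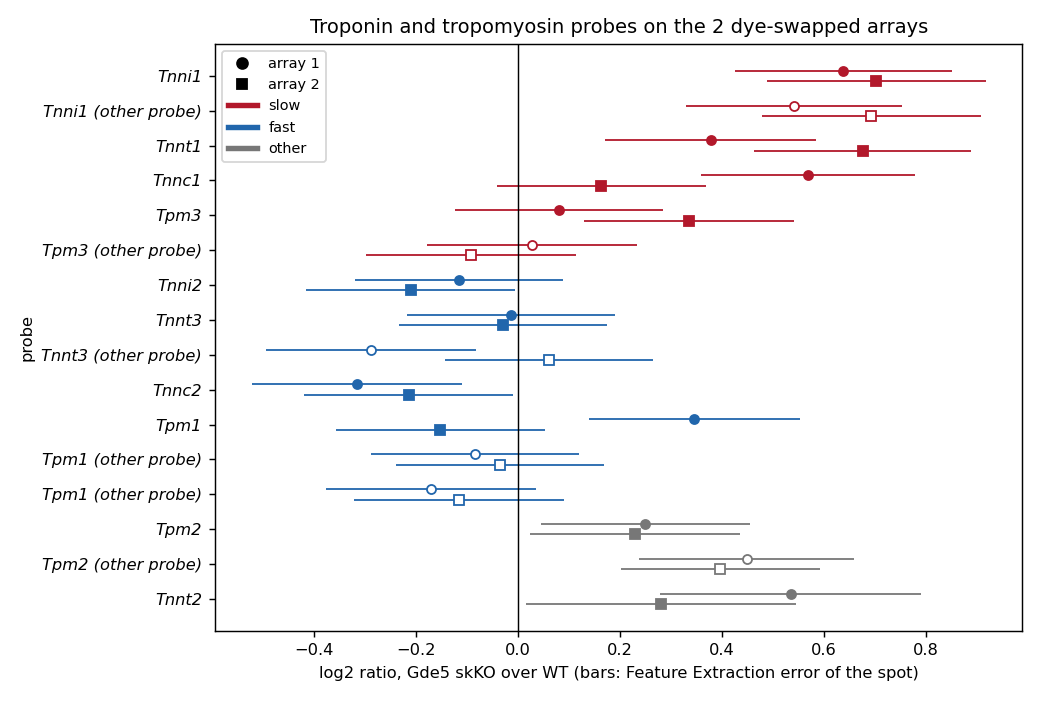
Log2 ratio of Gde5 skKO over WT (x axis) for the 16 member probes above background (y axis), on array 1 (circles) and array 2 (squares), with the Feature Extraction error of each spot as the bar. Filled symbols mark the probe that stands for the gene. Both Tnni1 probes, both Tpm2 probes and the Tnnt1 and Tnnt2 probes lie right of 0 on both arrays by more than their error. The brightest Tpm1 probe lies on either side of 0, and the other Tpm1 probes lie left of it.

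Tnni1, the slow skeletal troponin I, had a signal of 923 in WT and 1437 in *Gde5* skKO muscle on array 1, and of 952 and 1549 on array 2. The *Gde5* skKO signals were above both WT signals in either dye. The ratios were 0.64 and 0.70, each with a spot error of 0.21 and past the threshold, a mean of 0.67 ± 0.05 (SD of the 2 arrays), which is a 1.59-fold higher level. Its other probe, further along the gene, gave 0.54 and 0.69 with a mean of 0.62, and would also have been called. The array annotation places the first from 137623982 to 137625063 and the other from 137625162 to 137626037 on the plus strand of chromosome 1 in mouse build mm8. Both spans are longer than the 60 bases of the shortest probe placements, so the array places these probes across at least 1 intron. In limma, with normexp background correction and loess, the mean was 0.56 (SE 0.10) and the adjusted p was 0.053, which misses the threshold. Limma's SE and p rest on the spread between the 2 arrays and are no test across mice. Tnni1 ranked above 98.5% of all genes by its mean ratio, with 199 genes above it.

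Tnnt1, the slow skeletal troponin T, had signals of 11949 in WT and 15531 in *Gde5* skKO muscle on array 1, and of 10519 and 16804 on array 2. Both *Gde5* skKO signals were again above both WT signals. The ratio was 0.38 on array 1 and 0.68 on array 2, each with a spot error of 0.21, with a mean of 0.53 ± 0.21 (SD of the 2 arrays), so that Tnnt1 missed the call on array 1. Its single probe, from 4111571 to 4111630 on the minus strand of chromosome 7 (mm8), lies in row 527 of the 532 rows of the array. With limma's normexp and loess in place of the software's own correction, which also levels spatial trends, the ratio was -0.14 on array 1 and 1.04 on array 2, with an adjusted p of 0.71. The 230 probes above background in the last 10 rows had median limma ratios of -0.21 on array 1 and 0.14 on array 2, against 0.02 and -0.01 in the other rows. Their Feature Extraction medians were 0.11 and -0.04. The part of this position in the Tnnt1 value was not tested.

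Tnnc1 encodes the calcium-binding subunit shared by slow skeletal and cardiac muscle. Its signals were 2808 in WT and 4164 in *Gde5* skKO muscle on array 1, and 4654 and 5214 on array 2. Within each array the *Gde5* skKO signal was the higher, but the array 1 *Gde5* skKO signal lay below the array 2 WT signal. The ratio was 0.57 on array 1 and 0.16 on array 2, with spot errors of 0.21 and 0.20, a mean of 0.37 ± 0.29 (SD of the 2 arrays). Tnnc1 was therefore past the threshold on array 1 alone, and Tnnt1 on array 2 alone. The Tnnc1 probe is placed from 30039183 to 30039599 on the plus strand of chromosome 14 (mm8), a span over at least 1 intron.

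Tpm3, the slow form of alpha tropomyosin, showed the smallest slow-form ratio. Its brighter probe, from 90186351 to 90186410 on the plus strand of chromosome 3 (mm8), had signals of 3092 in WT and 3269 in *Gde5* skKO muscle on array 1, and of 2869 and 3619 on array 2. The ratios were 0.08 and 0.34, a mean of 0.21 ± 0.18 (SD of the 2 arrays), with neither array past the threshold. Its other probe, from 90175738 to 90175947, gave 0.03 and -0.09, so the 2 Tpm3 probes disagreed in direction on array 2. Tpm3 makes both muscle and non-muscle tropomyosins from alternative exons, and the array annotation does not say which of them either probe reads.

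**Figure D2:**
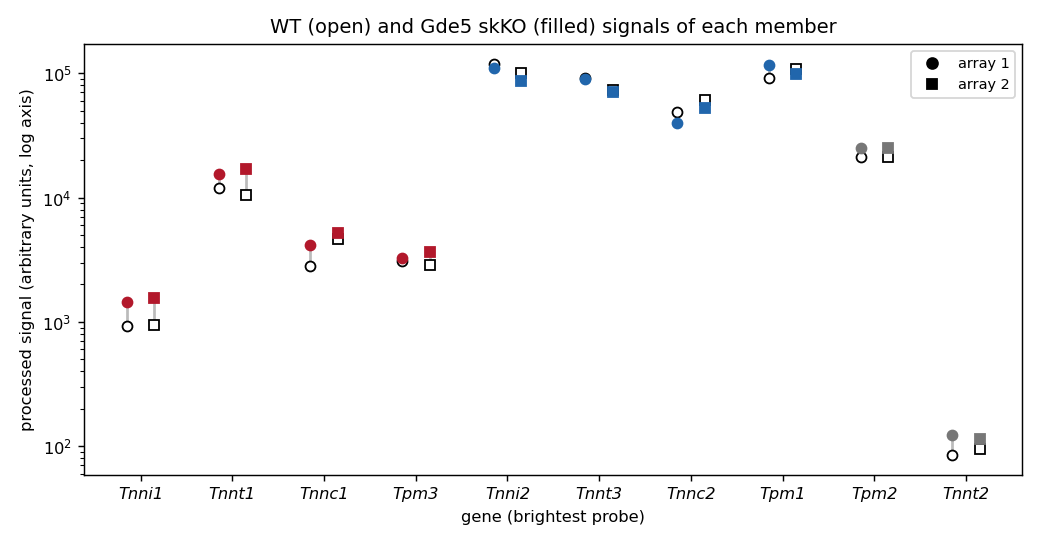
Processed signal (y axis, log scale, arbitrary units) of the brightest probe of each of the 10 genes (x axis), WT open and Gde5 skKO filled, circles for array 1 and squares for array 2, with a grey line joining the genotypes of an array. Heights are comparable within a gene only, and the Gde5 skKO symbol is above its WT symbol on both arrays for the 4 slow forms, Tpm2 and Tnnt2.

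With the software's own correction, Tnni1, Tnnt1 and Tnnc1 had ratios above 0 on both arrays while Tnnc2 had ratios below 0. The 250 bases before the annotated start of these genes are therefore shown. They are RefSeq sequences on GRCm38.p6, a later build than the mm8 of the array annotation, and 8 of the 10 genes had such an entry. Capitals mark 3 motifs, searched on both strands. The E-box CANNTG, read by myogenic factors such as MyoD, lies in 66.2% of the 32851 such windows of the RefSeq table. MCAT, CATTCC, read by TEAD factors, lies in 12.6%. The TATA box letters TATAAA lie in 12.4%. The binding motif of MEF2 factors was searched too, lies in 2.92% of windows, and had no match in any window of these 8 genes.
Tnni1, chr1:135799171-135799420, plus strand: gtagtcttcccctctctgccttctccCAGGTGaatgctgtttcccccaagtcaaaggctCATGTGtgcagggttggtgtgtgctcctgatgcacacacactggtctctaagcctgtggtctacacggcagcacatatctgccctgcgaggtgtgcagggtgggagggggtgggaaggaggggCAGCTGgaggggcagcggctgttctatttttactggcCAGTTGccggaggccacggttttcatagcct
Tnnt1, chr7:4515976-4516225, minus strand: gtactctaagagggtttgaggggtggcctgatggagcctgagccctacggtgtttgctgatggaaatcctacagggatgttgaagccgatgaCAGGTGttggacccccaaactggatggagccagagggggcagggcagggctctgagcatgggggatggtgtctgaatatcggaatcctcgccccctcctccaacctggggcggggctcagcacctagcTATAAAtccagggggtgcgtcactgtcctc
Tnnc1, chr14:31208062-31208311, plus strand: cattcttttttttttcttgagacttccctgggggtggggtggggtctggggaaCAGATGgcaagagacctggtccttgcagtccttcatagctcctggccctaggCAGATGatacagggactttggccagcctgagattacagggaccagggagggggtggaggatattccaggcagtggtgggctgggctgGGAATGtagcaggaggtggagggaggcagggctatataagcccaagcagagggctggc
Tnnc2, chr2:164779735-164779984, minus strand: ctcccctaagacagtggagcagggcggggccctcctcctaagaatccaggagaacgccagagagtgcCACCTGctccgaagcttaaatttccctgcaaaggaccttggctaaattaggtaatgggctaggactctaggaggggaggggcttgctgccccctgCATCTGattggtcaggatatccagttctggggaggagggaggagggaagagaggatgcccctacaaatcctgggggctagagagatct
The table has a second, overlapping Tnni1 window, not printed. The printed one held 4 E-boxes and the second 2, the Tnnc1 and Tnnc2 windows 2 each, and the Tnnt1 window 1. Tnnc1 alone of these 4 windows held an MCAT match, read on the opposite strand as GGAATG, from 58 to 53 bases before its start. Of the windows not printed, that of the fast partner Tpm1 held GGAATG from 56 to 51 bases before its start. A Tnnt2 window held CATTCC from 27 to 22 bases before its start. Tnnt1 alone held the exact letters TATAAA, from 30 to 25 bases before its start. Variants of these letters, such as the tatataa in the Tnnc1 window, were not searched. E-boxes stood in the windows of the slow forms and of the fast form alike, and a match of letters does not show that a factor binds there.

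None of the fast forms was called. Tnni2, the fast troponin I, had signals of 119413 in WT and 110231 in *Gde5* skKO muscle on array 1, and of 100789 and 87105 on array 2. Its ratios were -0.12 and -0.21, a mean of -0.16 ± 0.07 (SD of the 2 arrays) and of -0.08 with limma, with neither array past the threshold. Within each array the *Gde5* skKO signal was the lower one by less than the error of the spot on array 1 (0.20) and by about that error on array 2.

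Tnnt3, the fast troponin T, had the flattest ratios of the set. Its brighter probe gave signals of 90717 and 89893 on array 1 and of 72610 and 71152 on array 2, WT first. The ratios were -0.01 and -0.03, and the other Tnnt3 probe gave -0.29 and 0.06, which are of opposite sign. With limma the mean of the brighter probe was 0.03, so Tnnt3 has no settled direction.

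Tnnc2, the fast troponin C, had the lowest mean of the members. Its signals were 49080 in WT and 39421 in *Gde5* skKO muscle on array 1, and 60325 and 52008 on array 2. Its ratios were -0.32 and -0.21, neither past the threshold, a mean of -0.27 ± 0.07 (SD of the 2 arrays), or 0.832 of the WT level. The probe, from 164468366 to 164468425 on the minus strand of chromosome 2 (mm8), lies in row 526, and its limma ratios of -0.78 and 0.22 were of opposite sign. As for Tnnt1, the part of the array position was not tested.

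Tpm1, which makes the fast form of alpha tropomyosin and also cardiac, smooth muscle and non-muscle forms, went opposite ways on the 2 arrays at its brightest probe. The signals were 91662 in WT and 116493 in *Gde5* skKO muscle on array 1, and 108708 and 97828 on array 2, so that on each array the Cy5 channel was the brighter one. The ratios were 0.35 and -0.15, a mean of 0.10 ± 0.35 (SD of the 2 arrays). A ratio that turns with the dye gives no direction for the genotype. The other 2 Tpm1 probes were below 0 on both arrays, at -0.08 and -0.03 and at -0.17 and -0.12, none past the threshold, and the mean over the 3 probes was -0.04.

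Subtracting the ratio of the fast partner from that of the slow one, on the same array, gives the shift of each pair without setting one probe's level against another's. For troponin I, Tnni1 minus Tnni2 was 0.75 on array 1 and 0.91 on array 2, a mean of 0.83 ± 0.11 (SD of the 2 arrays), with a combined error of both spots of 0.29 and 0.30. The slow to fast ratio of troponin I was thus 1.78-fold higher in *Gde5* skKO muscle. For troponin T, Tnnt1 minus Tnnt3 was 0.39 and 0.71, and for troponin C, Tnnc1 minus Tnnc2 was 0.88 and 0.38. All 3 troponin pairs were above 0 on both arrays by more than their combined error. For tropomyosin, Tpm3 minus Tpm1 was -0.27 on array 1 and 0.49 on array 2, and the 0.11 mean is smaller than the SD of 0.53. With limma's normexp and loess, troponin I gave 0.67 and 0.63, while troponin T gave -0.22 and 1.06 and troponin C gave 1.33 and -0.04, so these last 2 pairs kept their sign on both arrays only with the software's own correction. Troponin T and C are the pairs that include a spot in rows 526 and 527.

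**Figure D3:**
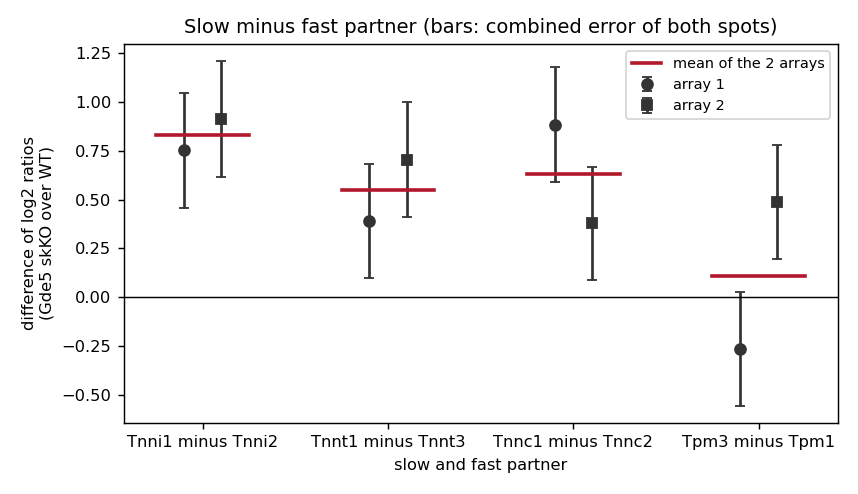
Slow minus fast difference of the log2 ratios of Gde5 skKO over WT (y axis) for the 4 partner pairs (x axis), circles for array 1 and squares for array 2, bars for the combined Feature Extraction error of both spots and red lines for the mean of the 2 arrays. The 3 troponin pairs lie above 0 on both arrays, and the tropomyosin pair lies on either side of 0.

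Tpm2 and Tnnt2 belong to neither side. Tpm2, the beta tropomyosin of both fibre kinds, had signals of 21023 in WT and 24999 in *Gde5* skKO muscle on array 1, and of 21211 and 24870 on array 2. The ratios were 0.25 and 0.23, a mean of 0.24 ± 0.01 (SD of the 2 arrays), close to each other but with neither array past the threshold. A second, dimmer Tpm2 probe gave 0.45 and 0.40, both past the threshold, and would have been called had it stood for the gene. That probe lies in the last row of the array, row 532, and its limma ratios were -0.06 and 0.33.

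Tnnt2, the cardiac troponin T, which immature and regenerating skeletal fibres also use, was the dimmest member. Its signals were 84.7 in WT and 123 in *Gde5* skKO muscle on array 1, and 94.5 and 115 on array 2. The ratio was 0.53 on array 1, past the threshold, and 0.28 on array 2, which was not, with a mean of 0.41 ± 0.18 (SD of the 2 arrays). With limma the mean was 0.06, and with loess and no background correction it was 0.12. The other Tnnt2 probe was not well above background in either genotype on either array and gives no ratio. Tnnt2 lies near Tnni1 on chromosome 1, with 29.4 kb between their nearest probes (mm8). Tnni2 lies near Tnnt3 on chromosome 7, with 68.0 kb between theirs. Only Tnni1 of the first pair and neither gene of the second was called.

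Ranked by mean ratio, the order of the 10 genes was Tnni1 at 0.67, Tnnt1 at 0.53, Tnnt2 at 0.41, Tnnc1 at 0.37, Tpm2 at 0.24, Tpm3 at 0.21, Tpm1 at 0.10, Tnnt3 at -0.02, Tnni2 at -0.16 and Tnnc2 at -0.27. No neighbours in this order differed by more than the error of their means, which was 0.14 to 0.18 for each gene by the software's error model. Between the arrays, the SD of a member's ratio ran from 0.01 for Tnnt3 and Tpm2 to 0.35 for Tpm1, with a median of 0.13, against 0.15 over all genes. In limma, 3 of the 10 members were higher at an unadjusted p under 0.05, which were Tnni1, Tnnc1 and Tpm2, against 4.23% of all genes, and none was lower, against 4.26%. None of the 10 passed after adjustment over all genes, where 0.287% of all genes were higher and 0.5% were lower.

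**Figure D4:**
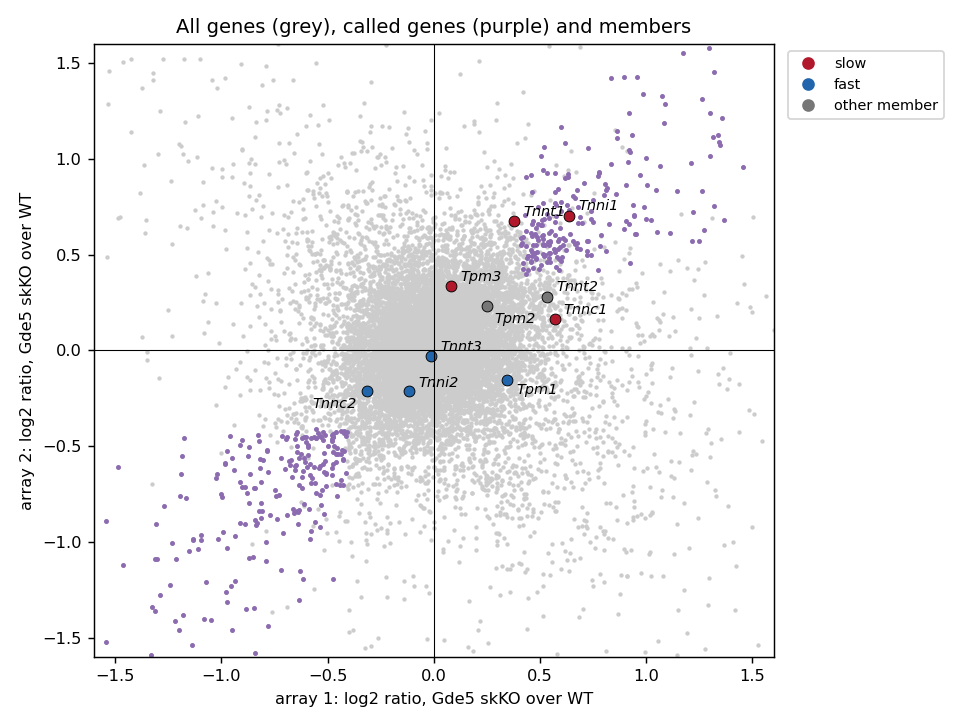
Log2 ratio of Gde5 skKO over WT on array 1 (x axis) against array 2 (y axis) for the 13595 genes (grey), the called genes (purple) and the 10 members (red slow, blue fast, dark grey other), with 195 genes outside the axes. Tnni1 lies among the called genes, Tnnt1 lies left of them, and the fast forms lie near the centre, with Tpm1 in the lower right where the arrays disagree.

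Of 21 other genes of the thin filament, which cover actins, nebulin, leiomodins, tropomodulins, capping and actin turnover proteins and the kelch proteins that stabilise the filament, 20 were measured, 1 was called higher, against 1.58% of all genes, and none was called lower. Their median ratio was 0.06, near the 0.01 of all genes. The gene called was Klhl40, a kelch protein that protects nebulin and leiomodin 3, with 0.58 and 0.49 and a mean of 0.53. The gene with the next largest ratio, Actc1, the cardiac and developmental actin, had 0.27 and 0.47 and was not called. Skeletal actin, Acta1, had 0.20 and 0.15. Tnni3, the cardiac troponin I whose probe lies 11.0 kb from that of Tnnt1, had a signal between 41.2 and 73.8 and ratios of -0.60 and 0.84, which give no direction.

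Several markers of slow fibres were among the called genes. Of 11 slow fibre genes, 9 were measured, 5 were called higher, against 1.58% of all genes, and none lower, with a median of 0.67. Myl2, the slow regulatory light chain, had 0.80 and 0.87, and Csrp3, a Z-disc LIM protein, had 0.81 and 0.84. Lmcd1 had a mean of 0.79, Mybpc1, the slow myosin-binding protein C, of 0.69, and Casq2, the cardiac and slow calsequestrin, of 0.67. Myh7, the slow myosin heavy chain, had 0.30 and 0.36 and was not called. Nor were Myl3, at 0.55 and 0.24, Atp2a2, at 0.44 and -0.12, and Myoz2, at -0.01 and 0.56. The median of the slow fibre list was 0.48 with limma. None of the 11 fast fibre genes measured was called, against 1.58% of all genes higher and 1.73% lower, and their median was 0.01. The largest mean ratios there were -0.34 for Pvalb, the calcium buffer parvalbumin, and 0.31 for the myosin Myh1. Pvalb had -0.20 on array 1 and -0.48 on array 2, past the threshold on array 2 alone. Its WT signal was 7504 on array 1 and 1767 on array 2, and its *Gde5* skKO signal was 6533 and 1265. The paper itself reports, from qPCR, that fibre type mRNA was similar in both genotypes. Its primers for this were for the myosins Myh7, Myh2, Myh1 and Myh4. The slow fibre list was written with earlier results of these arrays known and is no independent evidence for the direction of the slow troponins.

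**Figure D5:**
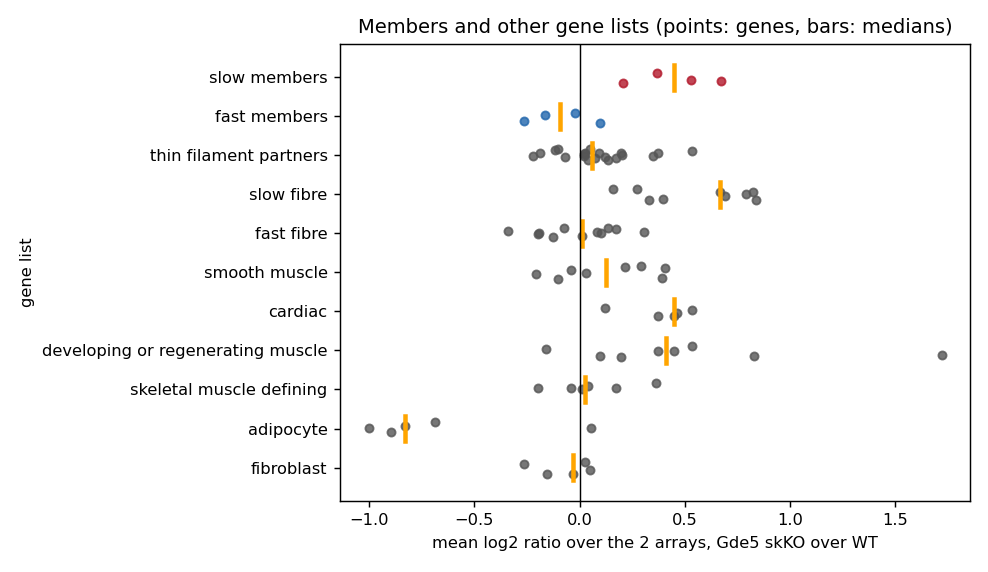
Mean log2 ratio of Gde5 skKO over WT over both arrays (x axis) for the slow and fast members and for 9 other gene lists (y axis), with each gene as a point and the median of a list as an orange bar. The slow members (median 0.45) and slow fibre genes (0.67) lie right of 0, the fast members (-0.09) and fast fibre genes (0.01) lie around it, and 4 adipocyte genes lie far left.

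Markers of other cells and states that share these genes were read beside them. Of 8 genes of developing or regenerating muscle measured, 3 were called higher, against 1.58% of all genes, and none lower, with a median of 0.41. Myh3, the embryonic myosin, had a mean of 1.72, with a WT signal of 106 and 136, and a mean of 0.86 with limma. Chrna1, the muscle acetylcholine receptor subunit, had 0.81 and 0.85, and the adhesion molecule Ncam1 had a mean of 0.53. Myh8, the perinatal myosin on that list, had 0.02 and -0.34, and Myog, the myogenic factor myogenin, had 0.18 and 0.01, neither called. Of 5 cardiac genes measured, Myh6 alone was called, with 0.59 and 0.48, against 1.58% of all genes called higher. The median of these 5 was 0.45, and 4 of them were above 0 on both arrays, where 29.2% of all genes were. Actc1 and Myl4 stand on both the cardiac and the developing muscle list, and Actc1 and Tnni3 also stand on the thin filament list. These lists are therefore not independent of each other. The next largest cardiac ratio was that of Nppb, at 0.46 and 0.05 with limma, with dim signals between 66.6 and 105. Nppa and Myl7, which mark atrial heart muscle, were not above background. None of 8 smooth muscle genes was called, against 1.58% of all genes higher and 1.73% lower. Their median was 0.12, and the largest ratios were 0.41 for Lmod1 and 0.39 for Acta2. The 6 genes that define skeletal muscle were all measured, none was called, against the same 1.58% and 1.73%, and their median was 0.03. Of 5 adipocyte genes measured, 4 were called lower, against 1.73% of all genes, with a median of -0.83, namely Cfd at -0.90, Retn at -0.83, Plin1 at -0.69 and Adipoq, the lowest, with -0.97 and -1.03. With limma that median was -0.34. Fabp4, the remaining adipocyte gene measured, had 0.13 and -0.02 and was not called. None of 5 fibroblast genes was called, again against 1.58% and 1.73% of all genes, with a median of -0.03. The part of these cells in the troponin and tropomyosin ratios was not tested.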

How the data were processed

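RNA of gastrocnemius (GAS) muscle from WT and *Gde5* skKO mice was hybridized by the study to 2 dye-swapped Agilent arrays, which share a slide and a scan. The authors extracted the scans with Agilent Feature Extraction 9.5 (9.5.3.1 per the file headers). The deposited log10 ratio of Cy5 over Cy3 is background-subtracted, detrended and dye-normalized, and the authors' files give each spot a p-value and an error from the software's error model. The deposited intensity values of each channel were used as signals. A deposited table of the series holds the same log10 ratio, rounded.

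Ratios were expressed as log2 of *Gde5* skKO over WT. Control spots, spots with outlier marks and spots whose local background exceeded 2 times their signal (20 on array 1, 9 on array 2) were left out, 179 and 209 spots in all. No member spot was left out or saturated. Probes were named through RefSeq accessions and symbols, and a gene stood by its brightest probe that had a channel well above background on each array. All members were named with every probe. Of the lists of thin filament, slow fibre, fast fibre, smooth muscle, cardiac and developing muscle genes, every called gene and the 2 largest ratios were named. Acta1, Tnni3, Myh7, Myl3, Atp2a2, Myoz2, Nppa, Myl7, Myh8, Myog and the adipocyte genes were added once their values were known. The number of arrays limits the precision.

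Alternatives used limma 3.58.1 (R 4.3.3; normexp, offset 50, loess, moderated test with Benjamini-Hochberg adjustment), the methods' test on channel signals, other thresholds, filters and probes, and each array alone. Python 3.11.15, pandas 2.3.3, numpy 2.4.6, scipy 1.17.1 and matplotlib 3.10.9 were used. The steps were tested on simulated data. The members and lists were chosen with earlier results of these data known.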

Additional observations from a re-analysis of the deposited data

How the results depend on the processing

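The genotypes are paired within each array by its ratio, so every fit of the ratios is paired. Against 215 genes called higher and 235 lower, 107 and 127 passed a Feature Extraction p of 0.01 on both arrays, 50 and 76 passed after adjustment within each array, 39 and 68 passed limma's moderated test after adjustment and 575 and 579 before it, and 55 and 77 had a mean log2 ratio of at least 1 either way. The methods' test, Student's t-test on the channel signals, was run unpaired and so leaves this pairing aside. It called 617 and 572 genes, and 0 and 0 after adjustment. A single array called 928 to 973 genes higher and 724 to 914 lower. Where any probe could call a gene, 263 genes were higher and 272 lower. Members called higher numbered 1, Tnni1, and stayed at 1 with the p of 0.01, the filters, the unsaturated probes and the debris spots kept. They numbered 0 after adjustment within each array, after limma's adjustment, after adjustment of the methods' test and at a log2 ratio of 1, 3 with limma unadjusted (Tnni1, Tnnc1, Tpm2), 4 with the methods' test unadjusted (Tnni1, Tnnt1, Tnnt2, Tpm2), 2 where any probe could call a gene, an alternative added after seeing the data (Tnni1, Tpm2), and 2 to 3 on a single array. None of the alternatives called a member lower. Tnni1 minus Tnni2 was 0.65 with limma and 0.66 with loess and no background correction, and the other pairs moved by less than the SD of the arrays with these and with the other probe choices. On a single array, Tnni1 minus Tnni2 ran from 0.75 to 0.91, Tnnt1 minus Tnnt3 from 0.39 to 0.71, Tnnc1 minus Tnnc2 from 0.38 to 0.88 and Tpm3 minus Tpm1 from -0.27 to 0.49. Signs of mean ratios turned for Tnnt3, to 0.03, with both loess settings, and for Tpm1, to -0.04 over all probes and to -0.15 on array 2.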
